A study of Drosophila melanogaster with 6 samples.

Results

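Cuticle proteins are the secreted structural proteins that arthropod epidermis lays down together with chitin to build the exoskeleton. Their genes were chosen here by name, as those whose symbol starts with Cpr and a digit, Lcp, Ccp, Twdl, Acp65 or Edg and whose probe set is paired with that 1 symbol. The rule found 104 genes among 11982 genes measured on the array, and all 104 were matched by identifier to the RefSeq gene table. They comprise 66 Cpr genes, 24 Twdl genes, 7 Lcp genes, 3 Ccp genes, 3 Edg genes and Acp65Aa. Of the 124 genes of that table with such a name, 7 are named here only in probe sets that several genes share, and 13 were not analysed here.

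Most proteins of the Cpr, Lcp, Ccp and Acp65 families carry the Rebers and Riddiford consensus, a domain that binds chitin, while Twdl proteins form the separate Tweedle family. The genes lie in tandem clusters, and successive sets of them are switched on and off as pulses of the steroid hormone ecdysone drive the moults and metamorphosis. Edg stands for ecdysone-dependent gene, and Edg78E and Edg84A are known targets of this cascade in prepupal discs. The wing imaginal disc is the larval epithelium that later secretes the cuticle of the adult wing and notum. Beyond the family, the part that most single Cpr and Twdl genes play is not described here.

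RNA levels were taken from whole wing discs of wall-climbing Drosophila melanogaster larvae of the third instar, grown at 25 °C, with 30 discs per condition and 25 ng of total RNA per sample amplified before labelling. In the LID RNAi group (2 arrays) larvae carried the lid k06801 allele, and act5Cgal4, a driver under the promoter of a broadly expressed actin gene, expressed a hairpin against lid, the gene of a histone demethylase. The GFP RNAi group (2 arrays) expressed a control hairpin with act5Cgal4 on a w1118 background, and the group titled wild type (2 arrays) has no RNAi by its labels, although its background field names w1118 with that driver. Hairpin, lid allele and strain come together in the LID RNAi group and cannot be told apart, and both hairpin strains came from NIG-FLY, a stock collection. Whether the arrays of a group stand for separate dissections is not stated in the labels, so SE and p-values may cover only technical spread. In a bulk sample, fewer cells of a type and less RNA per cell cannot be told apart.

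The targeted gene lid, now Kdm5, read 8.36 and 8.04 for LID RNAi, 10.32 and 10.45 for GFP RNAi and 10.42 and 10.33 for wild type, on the log2 scale of all levels below. Array medians lay between 6.31 and 6.43. LID RNAi replicate 2 stood apart, with a gap between the 3′ and 5′ ends of GAPDH of 1.20, against 0.88 to 1.06 on the other arrays. All 5 matched wing disc markers (vg, nub, ap, pdm2, rn) read above background on every array. For trachea, fat body and haemocytes 4 of 4, 3 of 3 and 8 of 8 matched markers were above background in at least 1 group. The counts were 8 of 8 for salivary gland, 5 of 6 for gut, 4 of 5 for muscle and 3 of 3 for the nervous system. Among all genes 77.2% passed in this way, so such counts alone do not show that these cells were present. Summed haemocyte marker levels were 68.99 and 71.78 for GFP RNAi, 79.83 and 77.11 for LID RNAi and 72.04 and 65.37 for wild type, and those of trachea lay between 36.36 and 38.85. In LID RNAi against wild type 1 of 8 haemocyte, 1 of 8 salivary gland and 1 of 5 muscle markers rose, beside 0.852% of all probe sets. The called markers were lz, ng1 and sls (limma adjusted p = 0.0346, 0.00846 and 0.0414), and ng1 also rose against GFP RNAi (adjusted p = 0.0338). At an unadjusted p under 0.05 the counts were 5 of 8, 2 of 8 and 2 of 5, against 16.9% of all probe sets. The largest haemocyte differences, 2.71 for PPO1 and 2.63 for PPO2, did not pass (limma adjusted p = 0.0607 and 0.106). Median differences from wild type were 0.999, 0.607 and 0.484 in the haemocyte, salivary gland and muscle lists, and the haemocyte median from GFP RNAi was 0.915. Single markers such as NimC1, Sgs5 and Mlc2 stood at -0.09, -0.21 and -0.46. For lz and ng1 all GFP RNAi and wild type arrays lay within background, so the rises against wild type were at least 1.74-fold and 1.48-fold. On the LID RNAi arrays ng1 read 5.36 and 5.41, below 5.56, the highest value of a bacterial control probe set. With 1 array left out in turn, the call of lz held in 2 of 6 fits, that of sls in 1 and that of ng1 in all 6 against wild type and in 0 against GFP RNAi. Salivary gland markers summed to 73.58 on LID RNAi replicate 2, against 61.39 to 66.50 on the other arrays. The part of these cells in the results below was not tested.

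A level was read as above background when it passed 4.82, the 95% point of 27 bacterial control probe sets on the arrays. By this limit, 62 of the 104 cuticle genes were above background in wild type, 60 in GFP RNAi and 67 in LID RNAi. Among all genes the shares were 75.0%, 74.3% and 74.6%. In total 56 genes passed in all 3 groups, 14 in some groups and 34 in none, and 77.2% of all genes passed in at least 1 group. With the highest control value, 5.56, as the limit the counts were 44 in wild type, 44 in GFP RNAi and 42 in LID RNAi. The count in LID RNAi was 59 without replicate 2 and 65 without replicate 1.

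The share of genes above background differed between genomic sets. A set holds the genes with the same family prefix and cytological band in their symbol, such as Cpr47E, so that Cpr65A, Lcp65A and Acp65A are kept apart. Twdl symbols carry no band and were grouped by chromosome arm, and the 18 Twdl genes of arm 3R span 3520 genes of the gene table. All 3 genes of Cpr67F and 6 of 7 genes of Cpr47E were above background in wild type, as were 3 of 4 genes each of Cpr64A and Cpr76B. In Cpr49A, 4 of 8 genes passed in each group, namely Cpr49Ac, Cpr49Af, Cpr49Ag and Cpr49Ah. Of the 18 Twdl genes on arm 3R 7 passed in each group, and 11 genes of this set, among them TwdlB, TwdlD, TwdlF, TwdlG, TwdlK and TwdlL, did not. Among 6 measured Lcp65A genes, of the larval cuticle protein family, 1 passed in wild type, 2 in GFP RNAi and 3 in LID RNAi. These counts turn on means at the unrounded limit of 4.817. Lcp65Aa passed in LID RNAi with 4.818 and Lcp65Ad did not in wild type with 4.815. Lcp65Ag3 passed in LID RNAi through replicate 1 only (6.25 and 4.61). Of the ecdysone-dependent genes, Edg78E and Edg91 passed in all groups and Edg84A in none, with 3.83 and 3.59 for GFP RNAi, 3.67 and 3.78 for LID RNAi and 3.73 and 3.77 for wild type. The plot of genes above background shows these counts.

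**Figure D1:**
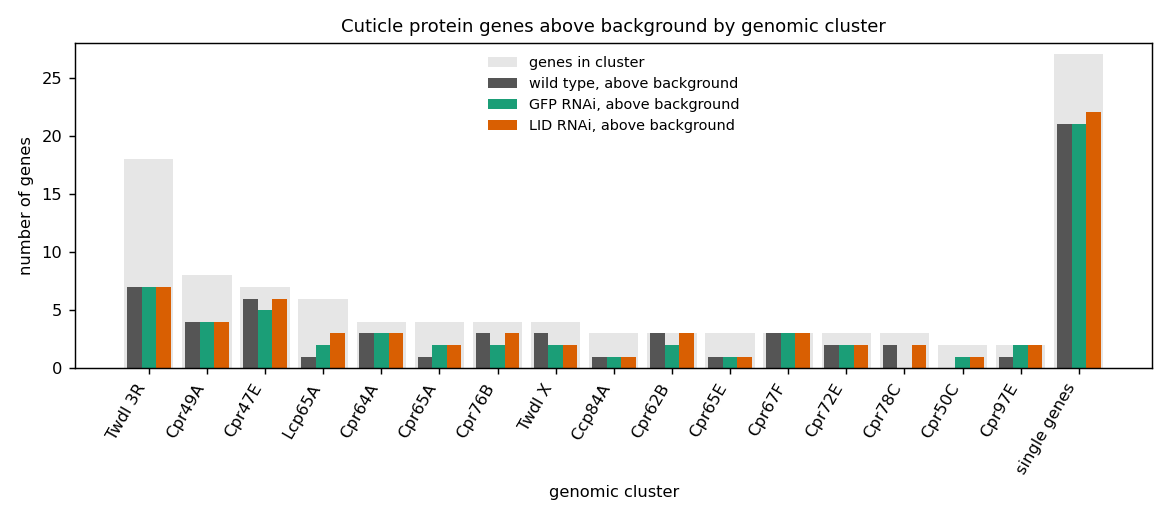
Number of cuticle protein genes (vertical axis) whose group mean lies above the background limit of 4.82, by genomic cluster, or for Twdl genes by arm (horizontal axis). Grey bars give the genes in the cluster and coloured bars those above background in each group of 2 arrays, for example 7 of 18 Twdl genes of arm 3R in each group.

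The other genes without a group above background were Ccp84Ac, Ccp84Ag, Cpr100A, Cpr49Aa, Cpr49Ab, Cpr49Ad, Cpr49Ae, Cpr50Ca, Cpr64Ab, Cpr65Au, Cpr65Az, Cpr65Ea, Cpr65Eb, Cpr72Ec, Cpr73D, Cpr76Bc, Cpr78Cb, Cpr92A, Cpr92F, Lcp65Ae, Lcp65Af, TwdlH, TwdlN, TwdlP, TwdlR, TwdlS and TwdlZ. Differences of the 34 genes between groups ranged from -0.92 for Cpr76Bc to 0.91 for TwdlK. At the other end, 16 genes above background in at least 1 group varied by at most 0.5 over all 6 arrays. Among them TwdlV read 5.98 and 5.93 for GFP RNAi, 5.93 and 5.97 for LID RNAi and 5.95 on both wild type arrays, a range of 0.05. Cpr49Ag read 12.32 and 12.06, 12.21 and 11.96, and 11.98 and 11.89 in the same order, and Cpr76Ba lay between 6.20 and 6.34. The other 13 were Ccp84Ae, Cpr23B, Cpr30F, Cpr35B, Cpr47Ef, Cpr50Cb, Cpr5C, Cpr62Ba, TwdlC, TwdlO, TwdlQ, TwdlY and Twdlalpha.

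As a set the cuticle genes varied widely. A range over the 6 arrays of more than 0.5 was seen for 66 of 104 genes (63.5%), against 37.8% of all genes. A range of more than 1, a 2-fold difference, was seen for 43 of 104 genes (41.3%), against 15.2% of all genes, and a range of more than 2 for 9 genes, against 3.41%. The median SD within groups was 0.26 for the 70 genes above background in at least 1 group, against 0.10 for 9249 such genes of any kind. These shares are descriptions without a test, and genes of 1 cluster are not independent of each other.

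Differences between groups were tested with limma across all 18769 probe sets, with Benjamini-Hochberg adjusted p-values and a threshold of 0.05. LID RNAi against wild type asks how discs with the lid knockdown and allele differ from discs without a hairpin by their labels. Cpr49Ah rose, and Cpr47Ee, TwdlW and Cpr76Bc fell. That is 1 of 104 genes higher and 3 lower (3.85% in all), where 0.852% of all probe sets were called higher and 1.49% lower (2.34% in all). The number of genes called was 1 without either GFP RNAi array or without wild type replicate 1, 0 without LID RNAi replicate 2 or wild type replicate 2, and 5 without LID RNAi replicate 1. In all, 28 of 104 (26.9%) had an unadjusted p under 0.05, against 16.9% of all probe sets. The arrays of both groups did not overlap for 23 genes that were higher and 27 that were lower, 50 in all (48.1%), against 20.7%, 26.4% and 47.1% of all probe sets.

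Cpr47Ee, one of 7 genes of the Cpr47E cluster on arm 2R, read 7.51 and 7.89 for wild type, 5.19 and 4.33 for GFP RNAi and 4.49 and 4.31 for LID RNAi. Both wild type arrays were high, both LID RNAi arrays lay within background, and of the GFP RNAi arrays only replicate 1 was above it. The gene fell by 3.30 ± 0.32 (SE, limma adjusted p = 0.0216) in LID RNAi against wild type, where wild type was at least 7.37-fold higher. With each array left out in turn the change lay between -3.49 and -3.11 and the adjusted p between 0.0427 and 0.129, and the call ended without either LID RNAi or either wild type array.

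Cpr49Ah, of the Cpr49A cluster, read 9.46 and 9.01 for wild type, 10.70 and 11.13 for GFP RNAi and 11.19 and 11.95 for LID RNAi. The wild type arrays were the lowest, and both LID RNAi arrays lay above the GFP RNAi arrays, the nearest by 0.05. Against wild type it rose by 2.33 ± 0.33 (SE, limma adjusted p = 0.0462), or 5.03-fold, in LID RNAi. Leaving out single arrays gave changes between 1.95 and 2.71 with adjusted p between 0.0491 and 0.218, and the call held only without LID RNAi replicate 1.

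TwdlW, a Tweedle gene of arm 3R, read 6.66 and 6.59 for wild type, 6.06 and 5.89 for GFP RNAi and 5.61 and 5.44 for LID RNAi. The 3 groups did not overlap, with wild type highest and LID RNAi lowest. It fell by 1.10 ± 0.10 (SE, limma adjusted p = 0.0215) in LID RNAi against wild type, and the difference between GFP RNAi and wild type was -0.65 (adjusted p = 0.103). With single arrays left out the change against wild type lay between -1.18 and -1.02 and the adjusted p between 0.0463 and 0.155, and the call held only without LID RNAi replicate 1.

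Cpr76Bc read 4.63 and 4.67 for wild type, 3.75 and 3.70 for GFP RNAi and 3.96 and 3.88 for LID RNAi. The wild type arrays were higher than the others, but all 6 values lie at the level of the control probe sets, so no fold is given. The differences from wild type were -0.73 ± 0.07 (SE, limma adjusted p = 0.0247) in LID RNAi and -0.92 ± 0.07 (SE, adjusted p = 0.0221) in GFP RNAi, and each call ended when any 1 array was left out (adjusted p from 0.0531 to 0.155 and from 0.0501 to 0.207).

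**Figure D2:**
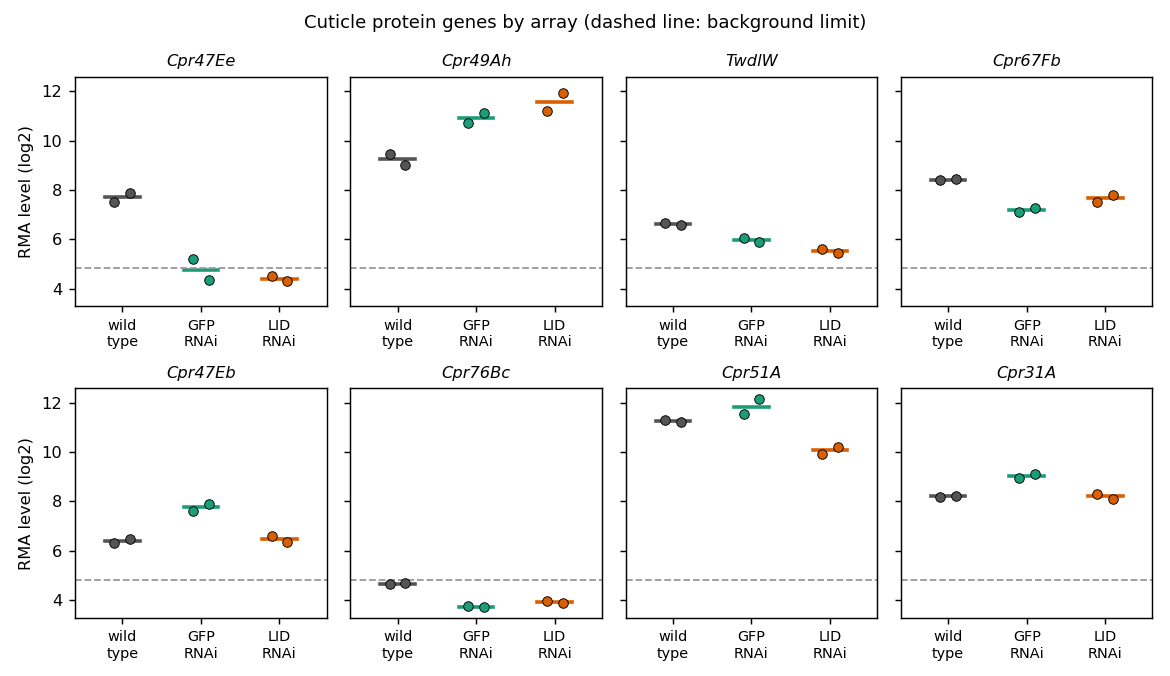
RMA levels (log2, vertical axes) of 8 cuticle protein genes on the single arrays (points) with group means (lines) for wild type, GFP RNAi and LID RNAi, and the background limit of 4.82 (dashed). Cpr47Ee is high on both wild type arrays, Cpr49Ah is low there, and Cpr47Eb and Cpr31A are high on both GFP RNAi arrays. Cpr51A and Cpr31A did not pass the threshold in any comparison.

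The GFP RNAi and wild type arrays both come from discs in which lid was not targeted. Cpr47Eb rose, and Cpr47Ee, Cpr67Fb and Cpr76Bc fell. The 1 gene higher and 3 lower of 104 (3.85% in all) stand beside 0.437% of all probe sets called higher and 0.426% lower (0.863% in all). Leaving out either GFP RNAi array or wild type replicate 2 left 0 genes called, and leaving out wild type replicate 1 or one of the LID RNAi arrays left 1. At an unadjusted p under 0.05 14 of 104 genes (13.5%) were counted, against 11.4% of all probe sets. The arrays did not overlap for 21 genes that were higher and 25 that were lower, 46 in all (44.2%), against 19.0%, 26.7% and 45.6% of all probe sets. This comparison shares the wild type arrays with the one before, so that genes in both are not seen there independently.

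Cpr47Eb, of the same cluster as Cpr47Ee, read 7.60 and 7.91 for GFP RNAi, 6.58 and 6.35 for LID RNAi and 6.31 and 6.46 for wild type. Both GFP RNAi arrays were high and the other 4 close together. The gene rose by 1.37 ± 0.15 (SE, limma adjusted p = 0.0435), or 2.59-fold, in GFP RNAi against wild type. LID RNAi and GFP RNAi differed, as the first minus the second, by -1.29 ± 0.15 (SE, adjusted p = 0.0662). No single array could be left out without losing the call (change from 1.22 to 1.53, adjusted p from 0.0771 to 0.264).

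Cpr67Fb read 8.39 and 8.43 for wild type, 7.09 and 7.26 for GFP RNAi and 7.52 and 7.80 for LID RNAi, so that the 3 groups did not overlap and GFP RNAi was lowest. It fell by 1.24 ± 0.13 (SE, limma adjusted p = 0.0384) in GFP RNAi against wild type, and differed by -0.75 (adjusted p = 0.0683) in LID RNAi against wild type. With single arrays left out the change lay between -1.32 and -1.15 and the adjusted p between 0.0468 and 0.234, and the call held only in the fits that left out a LID RNAi array. Cpr47Ee fell by 2.94 ± 0.32 (SE, adjusted p = 0.0423) in GFP RNAi, and this call ended when any 1 array was left out (change between -3.37 and -2.51, adjusted p between 0.0898 and 0.216).

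LID RNAi against GFP RNAi asks what the lid knockdown and allele add in discs that carry the same driver. In limma 0 of the 104 cuticle genes passed, where 0.165% of all probe sets were called higher and 0.304% lower (0.469% in all), and 18 genes (17.3%) had an unadjusted p under 0.05, against 12.4% of all probe sets. The arrays of both groups did not overlap for 21 genes that were higher and 23 that were lower in LID RNAi, 20.2% and 22.1% of the 104, against 21.2% and 20.7% of all probe sets, and in all for 44 (42.3%, against 41.8%). The members' median difference was 0.02, against 0.00 for all genes, with 55 of 104 above 0.

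Cpr51A had the largest measured difference among the genes with lower LID RNAi arrays. It read 9.93 and 10.20 for LID RNAi, 11.54 and 12.15 for GFP RNAi and 11.29 and 11.20 for wild type. Both LID RNAi arrays lay below all 4 others. The difference was -1.78 ± 0.23 (SE, limma adjusted p = 0.0736) from GFP RNAi and -1.18 ± 0.23 (SE, adjusted p = 0.0918) from wild type. Cpr31A, a single gene on arm 2L, read 8.95 and 9.10 for GFP RNAi, 8.31 and 8.11 for LID RNAi and 8.19 and 8.21 for wild type. The GFP RNAi arrays were again the ones apart, with a difference of LID RNAi from GFP RNAi of -0.82 ± 0.10 (SE, limma adjusted p = 0.0708) and of GFP RNAi from wild type of 0.83 ± 0.10 (SE, adjusted p = 0.0603). The second of these passed in 4 of 12 alternatives (lowest adjusted p = 0.0277). These were median centring, quantile normalization, dim probe sets left out and trended moderation. The 3 genes Cpr51A, Cpr47Eb and Cpr31A passed in LID RNAi against GFP RNAi when the variance was moderated with an intensity trend (adjusted p = 0.0360, 0.0385 and 0.0473), and 2 of them, Cpr47Eb and Cpr31A, when dim probe sets were left out. None of the 3 passed there after median centring or quantile normalization. The same held with only the 2 groups compared (limma adjusted p from 0.182 to 0.209) and with the replicate number as a block (0.122 to 0.150). With single arrays left out their differences lay between -2.09 and -1.47, -1.44 and -1.13, and -0.92 and -0.72.

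Other genes of this comparison had lower LID RNAi arrays and no call. TwdlT read 6.50 and 5.58 for LID RNAi, 7.46 and 6.90 for GFP RNAi and 7.42 and 8.47 for wild type. Cpr66D read 10.31 and 10.09 for LID RNAi, 10.89 and 11.34 for GFP RNAi and 10.92 and 11.14 for wild type. For both genes the LID RNAi arrays were below all 4 others, and the differences from GFP RNAi were -1.14 (limma adjusted p = 0.461) and -0.91 (adjusted p = 0.174). That of TwdlT was -0.68 without LID RNAi replicate 2. Cpr78E, Cpr64Aa, Cpr67Fa1 and Lcp65Ad stood at -0.90, -0.83, -0.81 and -0.78, with adjusted p between 0.143 and 0.498. Cpr78E read 10.98 and 9.76 for LID RNAi, 11.48 and 11.07 for GFP RNAi and 11.54 and 11.51 for wild type, and its difference was -0.30 without LID RNAi replicate 2 and -1.51 without replicate 1. Lcp65Ad read 4.54 and 4.80 for LID RNAi, 5.11 and 5.79 for GFP RNAi and 4.83 and 4.80 for wild type, and its difference was -0.44 without GFP RNAi replicate 2. Lcp65Ad lay within background in LID RNAi, and the GFP RNAi mean was at least 1.55-fold higher. This bound holds for the means only and does not cover the spread between arrays.

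In the other direction stood 3 genes with LID RNAi levels above those of GFP RNAi and no call. Twdlbeta read 7.71 and 7.37 for LID RNAi, 6.01 and 6.61 for GFP RNAi and 6.74 and 6.84 for wild type, a difference of 1.23 ± 0.23 (SE, limma adjusted p = 0.156) from GFP RNAi. Lcp65Ag3 read 6.25 and 4.61 for LID RNAi, 2.95 and 3.70 for GFP RNAi and 3.78 and 2.77 for wild type. The GFP RNAi and wild type arrays and LID RNAi replicate 2 lay within background, so only 1 array was above it and no fold is given. The differences did not pass (limma adjusted p = 0.324 against GFP RNAi and 0.217 against wild type). Without LID RNAi replicate 1 its fitted differences moved from 2.10 to 1.29 against GFP RNAi and from 2.15 to 1.34 against wild type. Lcp9 read 9.07 and 8.37 for LID RNAi, 8.10 and 7.05 for GFP RNAi and 9.37 and 6.76 for wild type, where the wild type arrays spanned all others (adjusted p = 0.701 against GFP RNAi). Its difference from GFP RNAi was 1.14, and 0.61 without GFP RNAi replicate 2.

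Group by group, both LID RNAi arrays were higher than all 4 others for 10 of 104 genes and lower for 15, that is 9.62% and 14.4%, where 10.6% and 12.8% of all probe sets were. Among the 15, 12 were above background in at least 1 group, namely Cpr51A, Cpr66D, Cpr67Fa1, TwdlT, TwdlW, Cpr97Ea, Cpr12A, Edg78E, Cpr78E, Cpr49Ac, Cpr64Aa and Lcp65Ad. Edg78E read 4.85 and 5.23 for LID RNAi, 5.56 and 5.37 for GFP RNAi and 5.81 and 5.94 for wild type, and its difference of -0.84 from wild type did not pass (limma adjusted p = 0.0878). Among the 10 higher genes, the gaps to the nearest other array were 0.83 for Lcp65Ag3, 0.53 for Twdlbeta and 0.23 for Cpr11A, and 0.20 or less for the other genes above background. Wild type arrays were higher than all 4 others for 16 genes and lower for 12, against 14.1% and 9.52% of all probe sets, and GFP RNAi arrays for 7 and 8, against 7.29% and 9.26%. The counts of the cuticle genes thus lie near those of all probe sets.

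**Figure D3:**
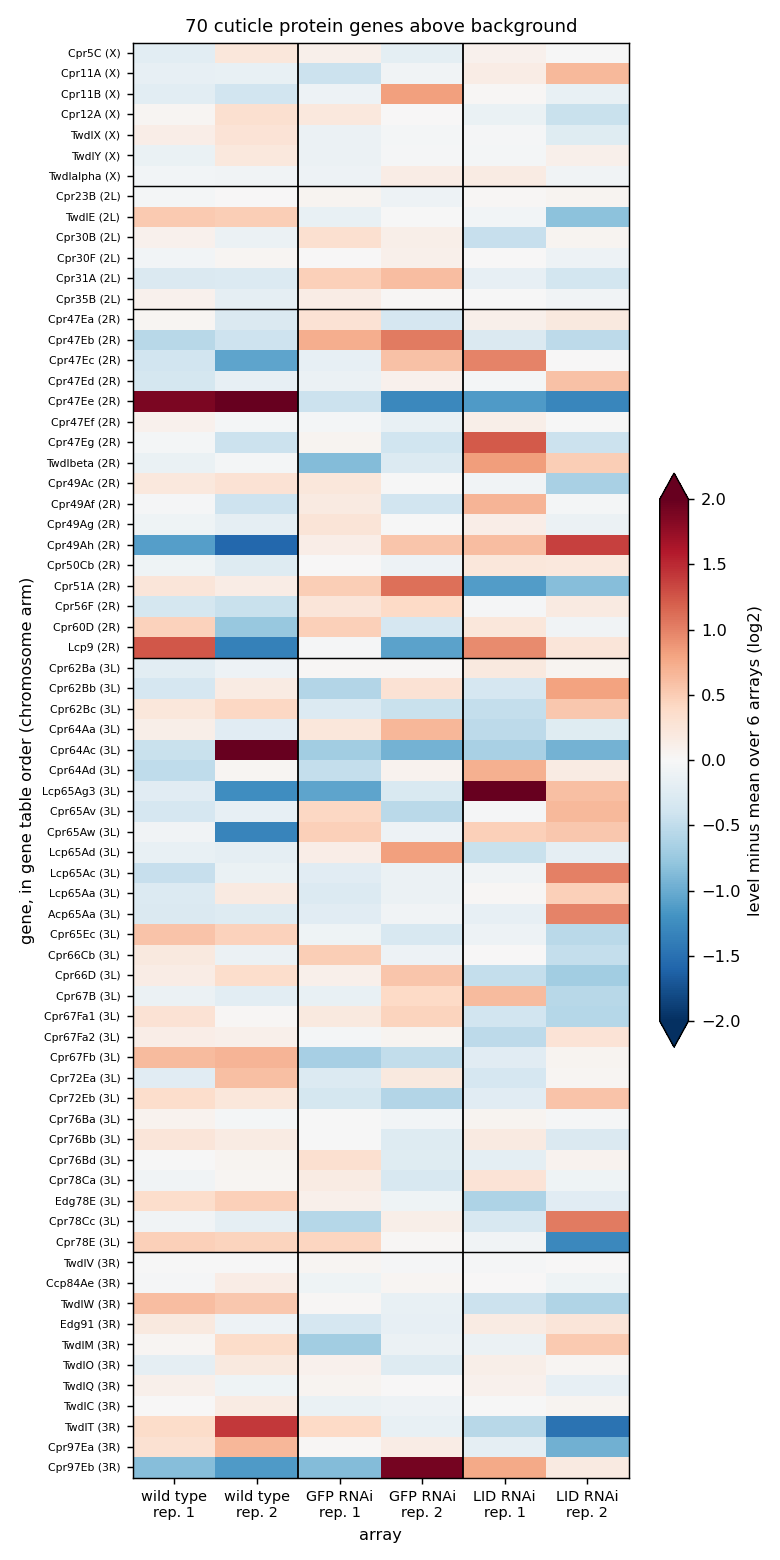
Level on each array minus the gene's mean over the 6 arrays (log2 colour scale, colours saturate at 2) for the 70 cuticle protein genes above background in at least 1 group, in the order of the gene table with the chromosome arm in brackets. Rows such as Cpr47Ee and Cpr49Ah follow the groups, while Cpr64Ac, Cpr97Eb and Lcp9 differ between arrays of 1 group.

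Several of the larger differences from wild type did not pass. Cpr64Ac read 10.54 on wild type replicate 2 and between 5.92 and 6.41 on the other 5 arrays. Its differences from wild type, -2.41 ± 1.34 (SE) in LID RNAi and -2.43 ± 1.34 (SE) in GFP RNAi, rest on that array, and without it they were -0.34 and -0.37. Without wild type replicate 1, with 1 wild type array left that takes its spread from the other groups, they were -4.47 and -4.49 and passed (limma adjusted p = 0.0360 and 0.0447). Cpr97Eb read 4.60 and 7.38 for GFP RNAi, 6.22 and 5.65 for LID RNAi and 4.62 and 4.34 for wild type. Wild type lay within background on both arrays, and the LID RNAi mean was at least 2.17-fold higher, a bound that does not cover the spread between arrays. The difference did not pass (limma adjusted p = 0.521). Its neighbour Cpr97Ea read 5.77 and 5.0 for LID RNAi, below 5.97 and 6.10 for GFP RNAi and 6.26 and 6.62 for wild type (difference from wild type -1.05, adjusted p = 0.169, and -0.67 without LID RNAi replicate 2).

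Cpr47Ec read 7.77 and 6.79 for LID RNAi, 6.62 and 7.37 for GFP RNAi and 6.40 and 5.73 for wild type, so that the wild type arrays were lowest (difference of LID RNAi 1.21, limma adjusted p = 0.289, and 0.73 without LID RNAi replicate 1). Cpr65Aw differed by the same 1.21 from wild type (adjusted p = 0.282), with 7.04 and 7.09 for LID RNAi, 7.03 and 6.46 for GFP RNAi and 6.48 and 5.23 for wild type, and by 0.59 without wild type replicate 2 and 1.84 without replicate 1. TwdlT and Cpr78E stood at -1.90 and -1.15 in LID RNAi against wild type (adjusted p = 0.154 and 0.276), and Cpr78E at -0.54 without LID RNAi replicate 2 and -1.76 without replicate 1. In GFP RNAi against wild type Cpr49Ah stood at 1.68, Cpr47Ec at 0.93, Cpr31A at 0.83, Cpr56F at 0.72 and Cpr11B at 0.65, and Cpr72Eb, Cpr65Ec and Cpr62Bc at -0.76, -0.72 and -0.68, with adjusted p from 0.0603 to 0.567. Leaving out GFP RNAi replicate 2 moved Cpr11B to 0.20 and Cpr47Ec to 0.56, leaving out replicate 1 moved Cpr11B to 1.11, and leaving out wild type replicate 2 moved Cpr47Ec to 0.59. Cpr65Ec read 9.05 and 8.95 for wild type, against 8.40 and 8.17 for GFP RNAi and 8.39 and 7.95 for LID RNAi, and Cpr56F read 4.94 and 4.84, against 5.54 and 5.69 and 5.27 and 5.48. For both, the RNAi arrays of either group lay on the same side of wild type.

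The other genes above background, 58 in each comparison, had smaller differences with few exceptions, and none passed. In LID RNAi against wild type they ranged from -0.95 for TwdlE to 0.77 for Lcp65Ac, with a median of 0.02. TwdlE, the Tweedle gene of arm 2L, read 10.98 and 10.95 for wild type, above 10.30 and 10.45 for GFP RNAi and 10.40 and 9.62 for LID RNAi, and did not pass (limma adjusted p = 0.174). In GFP RNAi against wild type the range was -0.77 for TwdlT to 1.51 for Cpr97Eb. In LID RNAi against GFP RNAi it was -0.65 for Cpr97Ea to 0.65 for Lcp65Ac, with a median of 0.07.

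At most 1 gene of a genomic set passed in LID RNAi against wild type. In Cpr47E, the differences of LID RNAi from wild type ranged from -3.30 for Cpr47Ee to 1.21 for Cpr47Ec, with a median of 0.27 over 7 genes of which 6 lay above 0, while Cpr47Ef read between 5.72 and 5.99 on all arrays. Within Cpr49A they ranged from -0.61 for Cpr49Ac to 2.33 for Cpr49Ah, with a median of 0.24 over 8 genes, 6 of them above 0. All 3 genes of Cpr67F had a lower group mean in LID RNAi than in wild type, and none of the 3 passed. The differences were -0.64 for Cpr67Fa1, -0.24 for Cpr67Fa2 and -0.75 for Cpr67Fb. The arrays of Cpr67Fa2 overlapped, with 5.21 and 5.99 for LID RNAi and 5.85 and 5.82 for wild type. The 4 genes of Cpr76B lay at or below 0 as well, from -0.73 for Cpr76Bc to -0.0027 for Cpr76Ba. Lcp65A ranged from -0.15 to 2.15 and the 18 Twdl genes of arm 3R from -1.90 to 0.91, with medians of 0.22 and -0.01. Over all 104 genes the median was 0.01 in LID RNAi against wild type and 0.01 in GFP RNAi against wild type, and over all genes it was -0.02 in both.

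**Figure D4:**
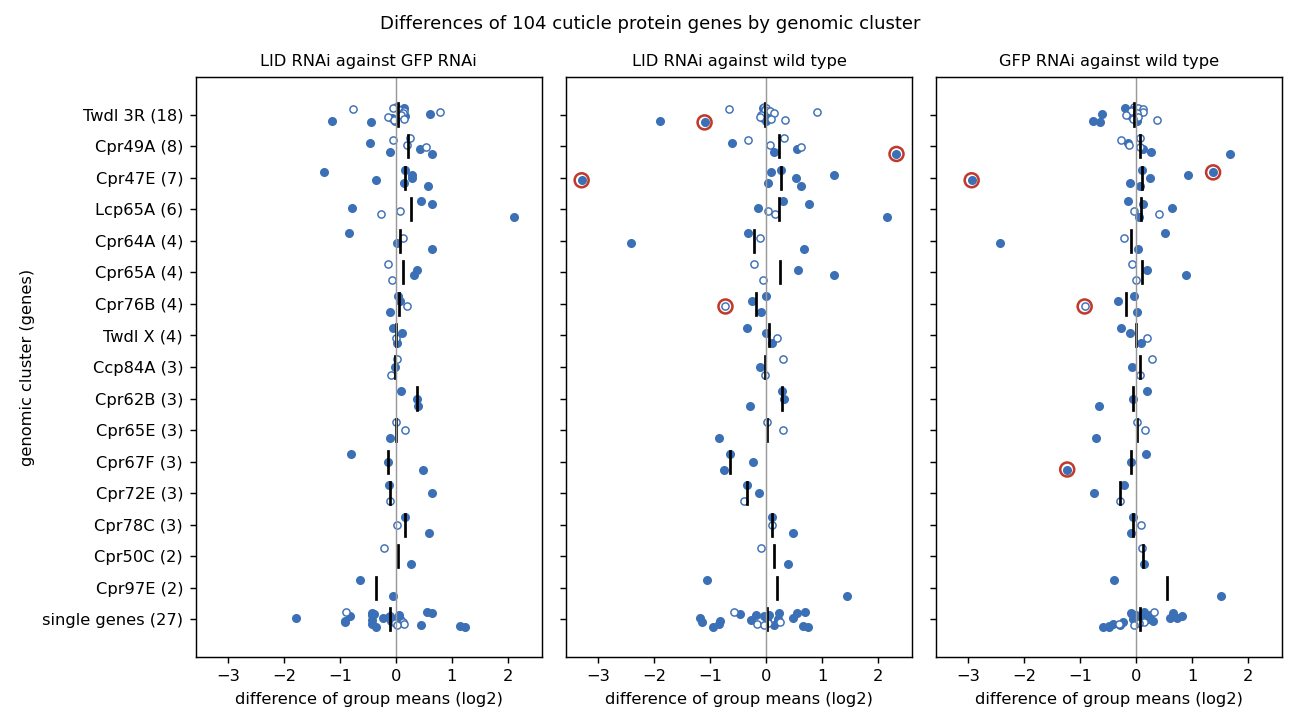
Differences of group means (log2, horizontal axes) of 104 cuticle protein genes by genomic cluster (vertical axis, number of genes in brackets) for the 3 pairs of groups. Filled points are genes above background in at least 1 group, open points genes that are not, black bars cluster medians, and red rings genes past the limma threshold, of which there are 0, 4 and 4.

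The 6 probe sets paired with several genes were left out of the counts. Of these, 2 pair Cpr57A with Obp57d, an odorant-binding protein gene, and the others pair cuticle genes with each other (Ccp84Aa with Ccp84Ab, Cpr65Ax1 with Cpr65Ax2, and the pairs given next). That of Lcp65Ag1 and Lcp65Ag2 read 6.38 and 7.30 for GFP RNAi, 5.35 and 6.30 for LID RNAi and 6.56 and 4.37 for wild type, unlike that of their neighbour Lcp65Ag3. The probe set shared by Cpr67Fa1 and Cpr67Fa2 read 7.20 and 7.56 for GFP RNAi, 6.73 and 6.56 for LID RNAi and 7.10 and 7.09 for wild type, with LID RNAi lowest, as for Cpr67Fa1 alone (6.05 and 5.87, against 6.64 and 6.89 and 6.73 and 6.46). Whether the probes of Lcp65Ag3 and Cpr67Fa1 also catch their close paralogs was not tested. The second probe sets of Cpr47Ef and Lcp65Aa gave differences of LID RNAi from GFP RNAi of 0.03 and 0.47, against 0.15 and 0.45 for the ones used.

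Some cuticle genes stood apart on a single array. In 10 of 104 genes (9.62%) 1 array lay at least 1 above or below the other 5, against 2.09% of all genes. LID RNAi replicate 2, the array with the largest GAPDH end difference, was highest for Lcp65Ac (6.95, against 5.48 to 5.87), Acp65Aa (5.59, against 4.31 to 4.53) and Cpr49Ae (4.76, against 3.34 to 3.60), of which the last lies within background. It was lowest for Cpr78E (9.76, against 10.98 to 11.54). On this array the tracheal regulator gene rib read 7.37, against 5.30 to 5.93 on the others, and the tracheal chitin-binding protein gene Gasp 12.29, against 11.80 to 12.19. Of the other 2 matched tracheal markers, vvl read 11.73, against 11.51 to 11.67, and the receptor gene btl read 7.47, within the 7.16 to 8.03 of the other arrays. The remaining cases were Lcp65Ag3 and Cpr47Eg on LID RNAi replicate 1, Cpr97Eb on GFP RNAi replicate 2, and Cpr64Ac, TwdlT and the low Cpr65Aw on wild type replicate 2. The part of RNA quality and of other cell types in these values was not tested.

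Some genes of the ecdysone cascade varied between arrays of 1 group too, and those named next were chosen after their values were seen. Others varied little, such as br, which read between 13.11 and 13.18 on all arrays. The nuclear receptor gene Hr3, which is induced by ecdysone ahead of ftz-f1, read 10.52 and 6.51 for GFP RNAi, 8.65 and 9.30 for LID RNAi and 10.14 and 10.62 for wild type. The receptor gene Hr4 read 10.50 and 7.75, 10.48 and 10.11, and 10.74 and 11.09 in the same order, and Blimp-1, an ecdysone-induced repressor of ftz-f1, 10.34 and 8.15, 10.36 and 9.58, and 10.96 and 11.02. All 3 genes were lowest on GFP RNAi replicate 2, the array on which ftz-f1 itself, a regulator of prepupal cuticle genes, was highest (10.62, against 9.16 to 10.08). Eip78C was lowest on the same array (7.40). Of 18 measured genes of this cascade and of cuticle gene regulators, 0 passed in limma in any of the 3 comparisons, the largest difference being -1.86 ± 1.32 (SE, adjusted p = 0.705) for Hr3 in GFP RNAi against wild type. Among all probe sets 0.469% were called in LID RNAi against GFP RNAi, 2.34% in LID RNAi against wild type and 0.863% in GFP RNAi against wild type. At an unadjusted p under 0.05 the counts of the 18 were 1 in LID RNAi against GFP RNAi, 3 in LID RNAi against wild type and 2 in GFP RNAi against wild type, beside 12.4%, 16.9% and 11.4% of all probe sets. Stage differences between the discs of single arrays were not measured and their part was not tested.

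**Figure D5:**
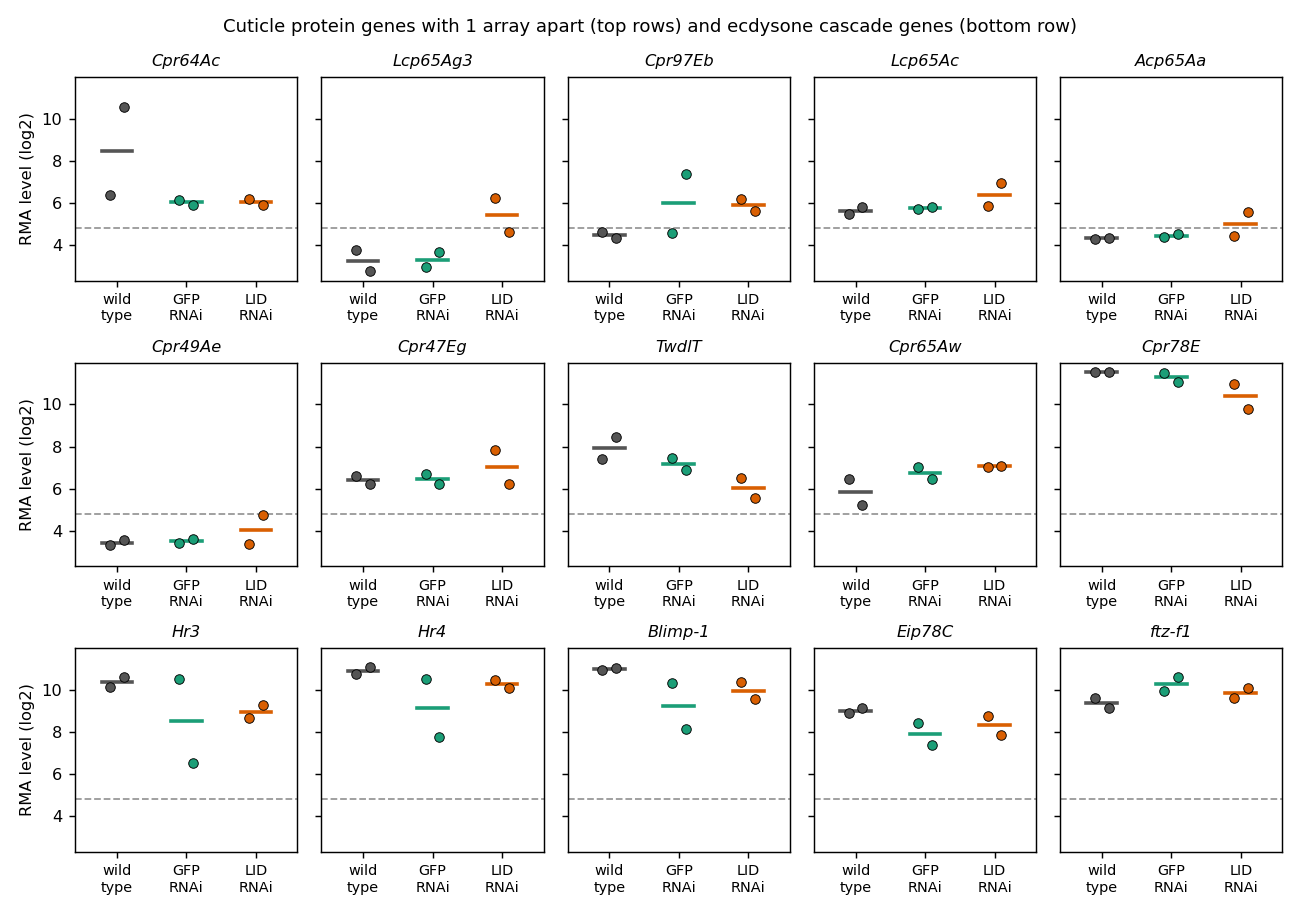
RMA levels (log2, vertical axes) on the single arrays (points) with group means (lines) and the background limit of 4.82 (dashed). The top rows show 10 cuticle protein genes with 1 array at least 1 above or below the other 5, and the bottom row 5 genes of the ecdysone cascade, of which Hr3, Hr4 and Blimp-1 are lowest and ftz-f1 is highest on GFP RNAi replicate 2.

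Of 31 measured genes for chitin synthesis and assembly, 2 rose and 0 fell in LID RNAi against wild type. Among all probe sets 0.852% were called higher and 1.49% lower there. The gene obst-E, of a chitin-binding matrix protein, rose by 1.44 ± 0.13 (SE, limma adjusted p = 0.0192) and read 8.57 and 8.48 for LID RNAi, 7.95 and 7.98 for GFP RNAi and 7.25 and 6.91 for wild type, with no overlap of the 3 groups, and its call ended when any 1 array was left out (adjusted p from 0.0563 to 0.0826). Idgf2, of the chitinase-like growth factors, rose by 1.05 ± 0.12 (SE, adjusted p = 0.0309), with 8.73 and 8.43, against 7.96 and 7.88 for GFP RNAi and 7.50 and 7.56 for wild type, and its call held only in the fits that left out a LID RNAi array (adjusted p from 0.0447 to 0.182). In LID RNAi against GFP RNAi and in GFP RNAi against wild type 0 genes of this list passed in limma, beside 0.469% and 0.863% of all probe sets. The largest differences were 1.09 for Idgf6 and 1.43 for Idgf3. At an unadjusted p under 0.05 the counts were 7 of 31 in LID RNAi against GFP RNAi, 14 in LID RNAi against wild type and 6 in GFP RNAi against wild type, where 12.4%, 16.9% and 11.4% of all probe sets were counted. The chitin synthase gene kkv read between 12.55 and 12.71 on all arrays, the deacetylase gene serp between 12.01 and 12.48, and the chitinase gene Cht10 between 13.10 and 13.27. For serp the LID RNAi arrays (12.48 and 12.46) lay above all others (12.01 to 12.20), without a call. The median differences of the list were 0.08, 0.24 and 0.12 in the order of the plotted pairs, with LID RNAi against GFP RNAi first and GFP RNAi against wild type last.

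Of 6 genes of cuticle families outside the name rule 0 passed in limma, and at an unadjusted p under 0.05 the counts were 0, 1 and 1 in the comparisons in the order above. Of all probe sets 0.469%, 2.34% and 0.863% were called in that order, and 12.4%, 16.9% and 11.4% had an unadjusted p under 0.05. Vajk3 and Vajk2 stood at 1.17 and 0.82 for LID RNAi against wild type, and the pupal cuticle gene Pcp at -1.16, with 7.89 and 5.47 on the 2 LID RNAi arrays. Among 11 genes of sclerotization and pigment, t, of the tan hydrolase, read 9.56 and 9.54 for LID RNAi, 8.34 and 8.69 for GFP RNAi and 3.43 and 3.68 for wild type, where both arrays lay within background. It rose at least 26.6-fold in LID RNAi and at least 13.0-fold in GFP RNAi against wild type (limma adjusted p = 0.00179 and 0.00350), and both calls held when any 1 array was left out. The gene amd, which is needed for cuticle integrity and is related to dopa decarboxylase, fell by 1.85 ± 0.16 (SE, adjusted p = 0.0180) in LID RNAi against wild type, with 8.70 and 8.45, against 8.94 and 9.32 for GFP RNAi and 10.39 and 10.46 for wild type, and its call ended without LID RNAi replicate 2 or either wild type array (adjusted p up to 0.129). In LID RNAi against GFP RNAi 0 of the 11 passed in limma. At an unadjusted p under 0.05 the counts of the 11 were 4, 4 and 3 in the same order of comparisons, where 12.4%, 16.9% and 11.4% of all probe sets were counted. The pigment gene e read 9.22 and 5.10 on the 2 GFP RNAi arrays, low on the array where Hr3 was low, and between 7.06 and 8.78 on the others. Among 8 genes of zona pellucida matrix proteins 0 passed in limma in any comparison, with 0, 2 and 2 at an unadjusted p under 0.05, beside the same shares of all probe sets. The largest differences were -0.45 and 0.81 for zye and -0.74 for mey.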

How the data were processed

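RNA of 6 wing disc samples was hybridised to 1-colour Affymetrix arrays, 2 per group. The deposited values are log2 expression levels. The submitters' processing notes name RMA, whose settings are not given in the sources used here. From them 18769 of 18952 probe sets were tested, without 183 control probe sets. The test was limma 3.58.1 in R 4.3.3, with 1 mean per group over all arrays, 3 residual and 1.77 prior degrees of freedom, two-sided p-values and Benjamini-Hochberg adjustment. The number of arrays limits the precision. Where several probe sets name a gene, the one with the highest mean was used. Cluster and gene names come from the platform annotation and the RefSeq gene table. A group was read as within background where its arrays lay below the 95% point of the Bacillus control probe sets (4.82). A fold against such a group is a bound set from that limit and the mean of the other group, and it does not cover the spread between arrays.

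Genes are named if called, or if among the 12 largest differences of a comparison with arrays that do not overlap and at least 1 group above background. From the pathway lists up to 4 called genes per comparison are named, otherwise the 1 with the largest difference. Genes named outside this rule were chosen after their values were seen: those with 1 array apart, the stable genes, those within background in every group, those whose arrays stood apart by group, the extremes of a range, the markers, and in the lists kkv, serp, Cht10, Gasp, Vajk2, Hr4, Blimp-1, Eip78C, ftz-f1, e and rib. The genes, lists and background limit were chosen with earlier results of these data known. Promoter motifs and protein features were not analysed here. The fit was tested on simulated data. Alternatives were quantile normalization, median centring, a filter on dim probe sets, trended and robust moderation, only the groups compared, the replicate number as a block, and each array left out.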

Additional observations from a re-analysis of the deposited data

How the results depend on the processing

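No named gene's difference reversed under any alternative. Over the named genes' differences 385 values kept their side of the threshold, 56 called ones no longer passed and 11 others did. With dim probe sets left out, 2 cuticle genes and 189 probe sets were called in LID RNAi against GFP RNAi, in place of 0 and 88. With trended and robust moderation the numbers were 3 and 281, and the probe sets called were 816 in LID RNAi against wild type and 328 in GFP RNAi against wild type, in place of 439 and 162. With only the groups compared, 3 probe sets were called in LID RNAi against GFP RNAi, 99 in LID RNAi against wild type and 90 in GFP RNAi against wild type, and 1 cuticle gene in each comparison with wild type. With the highest control value as the limit, 42 cuticle genes were above background in LID RNAi, in place of 67. The causes were not tested.

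With single arrays left out, cuticle genes called ranged from 0 to 0, 0 to 5 and 0 to 1, and probe sets called from 0 to 6, 24 to 324 and 4 to 90, in that order of comparisons, in fits with fewer samples. Cuticle genes above background ranged from 58 to 62 in GFP RNAi, 59 to 65 in LID RNAi and 61 to 63 in wild type. Cpr67Fb did not pass in GFP RNAi against wild type after quantile normalization.

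The groups share only replicate numbers, and no statement says that these pair arrays, so the pairing was not used. The part of a shared replicate effect was not tested. The deviations of replicate 1 correlated at 0.298 between LID RNAi and GFP RNAi, 0.223 between LID RNAi and wild type and 0.0646 between GFP RNAi and wild type. With the replicate number as a block, in the same order, 0, 1 and 0 cuticle genes and 12, 200 and 41 probe sets were called. Probe sets near the background limit have little signal over background.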
